A study of Rattus norvegicus with 18 samples.

Results

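The comparison described here set the spontaneously hypertensive rat (SHR) on plain drinking water against the normotensive Wistar-Kyoto (WKY) rat, in visceral white adipose tissue (vWAT). Members were chosen by group label, so that the 6 SHR-Water and the 6 WKY libraries, 12 of the 18 in the series, and all 32883 genes of the count table entered. All rats were males, held 3 to a cage on a standard diet. The SHRs were 7 to 8 weeks old at the start and were kept 22 weeks on tap water (SHR-Water), while the methods state no age or course of their own for the WKY rats, so the age match of the groups is not given in the sources used here. Neither group received an agent. The remaining 6 libraries, SHR-TMAO, came from SHRs that drank 1 g/L trimethylamine N-oxide (TMAO) for the same time, and their levels are given only side by side, because they would share the WKY rats as controls.

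The SHR is an inbred line bred from Wistar-Kyoto stock for high blood pressure, which it develops without treatment, and the WKY rat is its customary control. Visceral white fat stores triglyceride inside the abdomen, secretes hormones such as leptin, and holds adipocyte precursors, vessels, fibroblasts and immune cells beside its adipocytes. RNA from the whole tissue pools all of these cells, so fewer cells of a type and less RNA per cell cannot be told apart. Each group was 1 inbred strain, and anything else that differs between the strains cannot be told apart from hypertension. Reads of both strains were aligned to the Rnor_6.0 assembly, which was built from a Brown Norway rat, and the effect of strain-specific sequence or gene copies on the counts was not tested. Whether rats of a group shared a cage, litter or preparation day is not in the labels, and the p-values measure the spread between these rats.

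Genes are given by position on Rnor_6.0 as the count table records it, with exon length summed over the annotated exons. Identifiers are printed for 4 genes only, because the table does not pair its Ensembl identifiers with symbols and 0 of 32883 matched the RefSeq table at hand. For the same reason the marker genes of fat, vessel, blood and immune cells could not be looked up, and the tissue label was not checked against them. Levels are CPM (counts per 1000000) after trimmed mean of M-values (TMM) normalization. A gene was called when its adjusted p was under 0.05 (edgeR's quasi-likelihood test, Benjamini-Hochberg adjustment over all genes tested) and its change was at least 2-fold.

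Libraries held 10774133 to 18841046 gene counts in WKY and 14939661 to 17251247 in SHR-Water. Genes of the mitochondrial genome took 7.08% to 20.6% of counts in WKY (median 15.2%) and 15.5% to 28.5% in SHR-Water (median 19.9%), and these ranges overlapped. WKY replicate 2 and SHR-Water replicate 1 stood apart from their own groups, with a median correlation of log levels to the other 5 of 0.9345 and 0.935, against group medians of 0.96 and 0.962. WKY replicate 4 came next at 0.9427 and had the lowest mitochondrial share of all (7.08%) and the most negative relation of counts to gene length (rank correlation -0.445). Counts of calls are therefore also given without these libraries.

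Between the strains, 445 of 13017 genes tested were called, which is 3.42% of them. In SHR-Water 168 genes (1.29%) were higher and 277 (2.13%) were lower, so that 62.2% of the called genes were lower. A further 19866 genes fell under the count filter, among them 12067 with 0 counts in all 12 libraries. The changes were mostly of moderate size. The median was 3.20-fold among the higher genes and 2.86-fold among the lower, and 108 higher and 199 lower genes changed by 2- to 4-fold. Changes of 8-fold or more were found for 22 higher and 26 lower genes, spread over 10 and 13 chromosomes. The median log2 fold change of all genes tested was -0.00412, so the called genes are set against a centre close to 0.

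The balance of directions among the calls depended on WKY replicate 2 and on the model fitted. Without WKY replicate 2, 1278 genes were called, 835 higher and 443 lower, and 435 of the original 445 were among them. Without SHR-Water replicate 1, 725 genes were called, 327 higher and 398 lower, with 424 of the original genes among them. With limma voom, which weights libraries by their quality, 1051 genes were higher and 598 lower. With replicate number added to the edgeR fit as a block, 296 genes were higher and 295 lower. Without WKY replicate 4, 400 genes were called, 151 higher and 249 lower. The majority of lower genes in the fit reported here thus turned to a majority of higher genes without WKY replicate 2 or with weights. It was lost with the replicate block. A core of 272 genes (101 higher, 171 lower; 61.1% of the 445) was called with all libraries and in each of the 12 fits that left 1 library out.

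**Figure D1:**
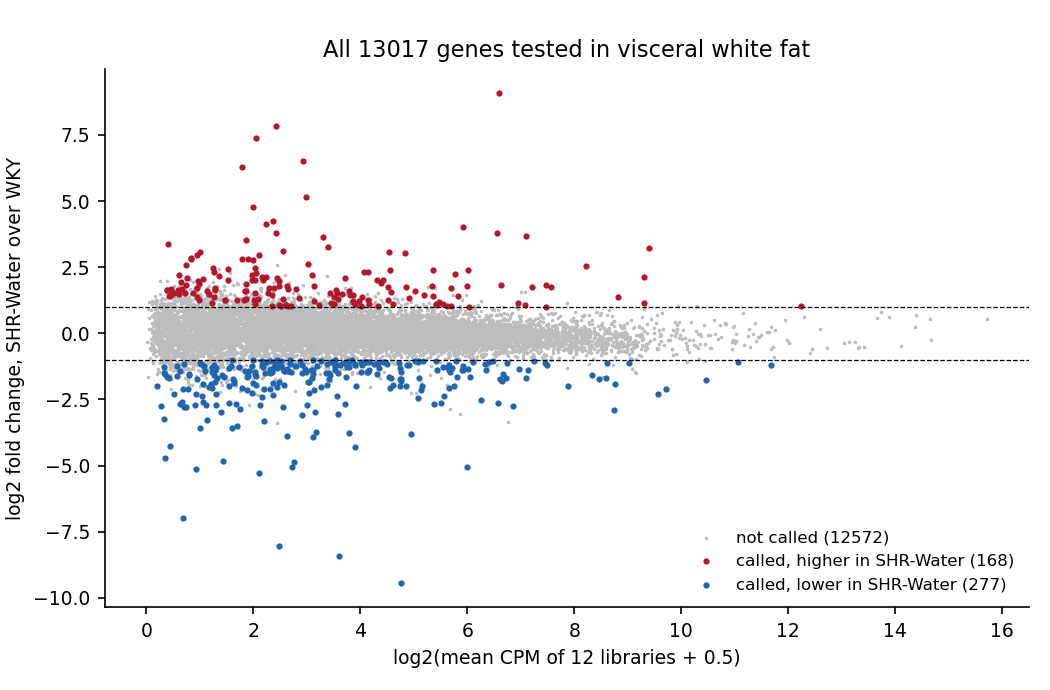
Each point is 1 of the 13017 genes tested, with the mean level in 12 libraries on the horizontal axis (log2 of CPM plus 0.5) and the log2 fold change of SHR-Water over WKY on the vertical axis. Red points are the 168 genes called higher, blue points the 277 called lower, and dashed lines mark 2-fold, and most of the largest changes lie at low to middle levels.

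In 538 genes (4.13% of those tested) the 6 levels of a group all lay above or all below the 6 of the other. Of these, 275 were also called, 100 higher and 175 lower in SHR-Water. The other 263 separated the strains without meeting the call. Among them 195 had an adjusted p under 0.05 and missed the 2-fold limit, and the median absolute log2 change of the 263 was 0.60. Conversely, the levels of the strains overlapped for 170 called genes. The median SD of log2(CPM + 0.5) between rats of a group was 0.361 in WKY and 0.345 in SHR-Water over all genes. Over the called genes it was 0.452 and 0.439. Called genes had lower median levels than all genes tested, and SDs at matched level were not compared.

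Called genes took a small part of the RNA. Leaving out the mitochondrial genome, they held 2.59% to 3.70% of counts in the WKY libraries (median 3.12%) and 2.03% to 2.30% in SHR-Water (median 2.26%), and those ranges did not overlap. Over all counts, the mitochondrial genome included, the ranges were 2.53% to 3.60% and 2.398% to 2.602% and did overlap. Since the call chose these genes and most of them were lower, the shares are a description. Their median level, 5.66 CPM for higher and 7.73 CPM for lower genes, was below the 15.1 CPM of all genes tested.

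Of the genes higher in SHR-Water, a pair on chromosome 1 is given by identifier. ENSRNOG00000042084, at 189289957 to 189395276 on the plus strand, has 29 exons and 4594 bases of exon. Its level in WKY was 0 CPM at the lowest, 0.0320 at the median and 0.0902 at the highest, against 6.80, 8.96 and 14.4 CPM in SHR-Water. The groups did not overlap, and the log2 fold change was 7.85 ± 0.47 (SE, n = 6 and 6, edgeR's quasi-likelihood adjusted p = 3.55e-07). The 6 WKY libraries held 3 counts of it in all, and the 6 SHR-Water libraries 971. ENSRNOG00000019050, at 252944103 to 252946170 on the plus strand, is annotated as 1 exon of 2068 bases. Its level was 0, 0.154 and 0.256 CPM in WKY and 11.0, 12.1 and 21.98 CPM in SHR-Water, with no overlap. The log2 fold change was 6.52 ± 0.40 (SE, edgeR adjusted p = 4.23e-07).

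Both of the lower identifiers lie in short genes of 1 exon. ENSRNOG00000022490 covers 9096044 to 9096481 on the minus strand of chromosome 3, 438 bases. Its level was 17.5, 28.1 and 34.1 CPM in WKY and 0.824, 1.47 and 1.75 CPM in SHR-Water. The groups did not overlap and the log2 fold change was -4.32 ± 0.23 (SE, edgeR adjusted p = 9.14e-08). ENSRNOG00000061943 covers 121342679 to 121343013 on the plus strand of chromosome 7, 335 bases. It was present in every WKY library, at 5.33, 10.4 and 13.7 CPM. In SHR-Water the lowest and the median library were at 0 and the highest at 0.139 CPM, and the log2 fold change was -8.05 ± 0.54 (SE, edgeR adjusted p = 9.82e-07), or -9.02 without SHR-Water replicate 5. The SHRs given TMAO had medians of 9.35, 18.2, 1.79 and 0.0844 CPM for these 4 genes in the order above. Those values come from another 6 rats of the strain and are described without a test.

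**Figure D2:**
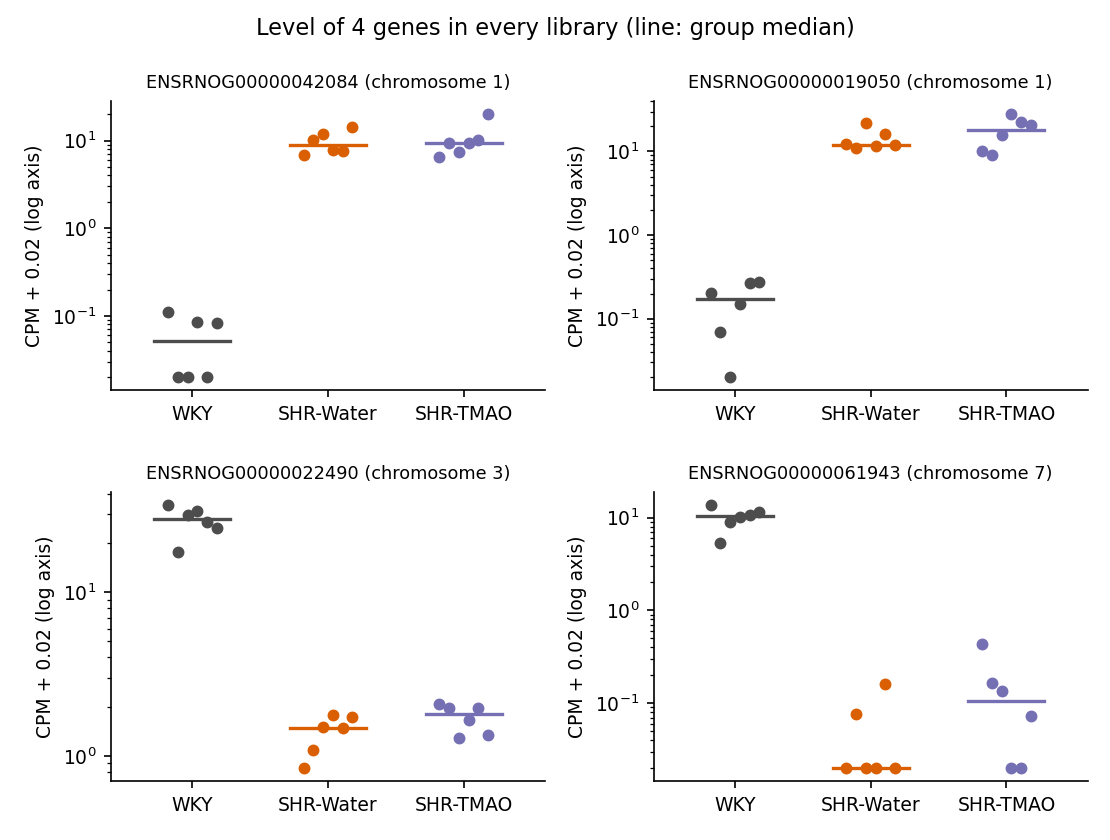
Level of the 4 genes given by identifier in each of the 18 libraries, as CPM plus 0.02 on a log axis, with 1 point a rat and a line at the group median. In each gene the WKY points lie apart from both SHR groups, and points at 0.02 are libraries with 0 counts.

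Presence or near absence in a strain was common among the largest changes. Of the 22 genes at least 8-fold higher in SHR-Water, 12 were under 1 CPM in every WKY library, and of the 26 at least 8-fold lower, 15 were under 1 CPM in every SHR-Water library. The groups did not overlap for 21 and 23 of these genes, and 22 and 23 were called whichever library was left out. Of all genes tested, 4.13% did not overlap. Of all 445 called genes, 275 did not overlap and 272 were called whichever library was left out. A large fold in these same libraries chose the genes, which favours low levels in a strain and groups that lie apart, so the counts are descriptions. For 4 genes the strain with less held at most 3 counts over its 6 libraries. ENSRNOG00000042084 had a ratio of summed, depth-scaled counts of 295 (95% interval 101 to 1432), and ENSRNOG00000061943 had the inverse ratio of 319 (109 to 1547). The gene at 80948658 to 81143447 on chromosome 2, the longest of the 4 with 61 exons and 10410 bases, held 204 counts in WKY and 1 in SHR-Water, a ratio of 224 (40.1 to 8833). The gene at 33781870 to 33801999 on chromosome 11 held 709 counts in SHR-Water and 3 in WKY, all 3 in replicate 1, a ratio of 216 (73.8 to 1045). These intervals cover counting error only. At such counts 1 library can set the fitted fold. The log2 fold change of the chromosome 11 gene was 7.404 and became 9.87 without WKY replicate 1, and that of the chromosome 2 gene was -6.96 and became -8.12 without SHR-Water replicate 6.

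Other genes were high in a strain and nearly absent in the other without reaching that limit. On chromosome 11, 33909439 to 33917674 was at 126, 191 and 289 CPM in SHR-Water and at 0.0485, 0.290 and 0.961 CPM in WKY (log2 fold change 9.07 ± 0.46, edgeR adjusted p = 7.72e-08). On chromosome 1, the 1-exon gene at 112074735 to 112076013 was at 35.5, 54.2 and 66.5 CPM in WKY and at 0, 0.0306 and 0.226 CPM in SHR-Water (log2 fold change -9.43 ± 0.42, edgeR adjusted p = 2.96e-08). This was the smallest adjusted p of the comparison, shared with the 1-exon gene at 59408546 to 59410211 on chromosome 3. That gene stood at 84.4, 104 and 174 CPM in WKY and at 3.17, 3.44 and 4.86 CPM in SHR-Water, so it was reduced but still counted in every SHR-Water library. Single libraries moved the fold of the other pair by over 1.5 times. The log2 fold change was 9.72 for 33909439 without WKY replicate 6 and -10.2 for 112074735 without SHR-Water replicate 2.

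Genes nearly absent in a strain could vary widely between rats of the other. The gene at 54925607 to 54937177 on chromosome 8 was at 0.0641 CPM in the median WKY library and at most 0.122. In SHR-Water it ran from 0.673 to 12.7 CPM (median 4.41), so the groups did not overlap although the SHR-Water libraries differed widely (log2 fold change 6.29 ± 0.89, edgeR adjusted p = 0.00081). By contrast, the 19-exon gene at 42757235 to 42794279 on chromosome 15 was at 153, 170 and 205 CPM in SHR-Water, against 8.92, 10.7 and 20.9 CPM in WKY. Its log2 fold change was 3.81 ± 0.21 (edgeR adjusted p = 1.21e-07).

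Small changes could also be well separated. The 9-exon gene at 22021213 to 22027228 on chromosome 8 was at 61.9, 70.7 and 80.4 CPM in WKY and at 22.8, 27.4 and 32.6 CPM in SHR-Water. Its log2 fold change of -1.40 had an SE of 0.12, and it ranked among the 12 lower genes of smallest adjusted p (edgeR, 1.22e-05).

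Genes of high level were called in both directions. At 13130636 to 13142856 on chromosome 20, a 3-exon gene took 3375, 4435 and 6322 CPM in WKY and 1663, 2069.5 and 2155 CPM in SHR-Water. The groups did not overlap, and the log2 fold change was -1.19 ± 0.17 (edgeR adjusted p = 0.000958). The gene at 86950557 to 86962578 on chromosome 10 fell from 419, 773 and 1197 CPM to 73.2, 97.9 and 130 CPM (log2 fold change -2.90 ± 0.25, edgeR adjusted p = 1.27e-05). In the other direction, the gene at 28435507 to 28472880 on the X chromosome rose from 50.5, 81.1 and 134 CPM to 384, 506 and 622 CPM (log2 fold change 2.55 ± 0.22, edgeR adjusted p = 1.04e-05). The SHR-TMAO medians of these 3 genes were 2379.7, 96.1 and 535 CPM.

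Called genes were found on every chromosome except Y. On the autosomes the share called ran from 1.6% (chromosome 16) to 8.12% (chromosome 20), around the 3.42% of all genes. Chromosome 13 had the next largest share, 5.08%, and the X chromosome had 2.04%. On chromosome Y, 0 of 6 genes tested were called by edgeR, with 0 at an unadjusted p under 0.05, while DESeq2 called 0 of 10 and limma voom 1 of 6. Chromosome 18 was the most one-sided of the autosomes with at least 10 calls, with 1 gene higher and 9 lower.

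Chromosome 20 held 32 called genes of 394 tested, 9 higher and 23 lower, and its median log2 fold change was -0.10. In the rat this chromosome carries the RT1 complex, the major histocompatibility complex, whose class I and class II molecules present peptides to T cells, and the RefSeq table places all 67 of its RT1 symbols there. That table is of another assembly and was not matched to positions, so no gene below is given an RT1 name. Leaving out each library in turn, the share called on chromosome 20 stayed between 6.27% and 12.9%, each time above that of the other chromosomes together in the same fit. It was no longer the largest of the autosomes without WKY replicate 2, where chromosome 11 reached 14.7% and chromosome 20 reached 12.9%.

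**Figure D3:**
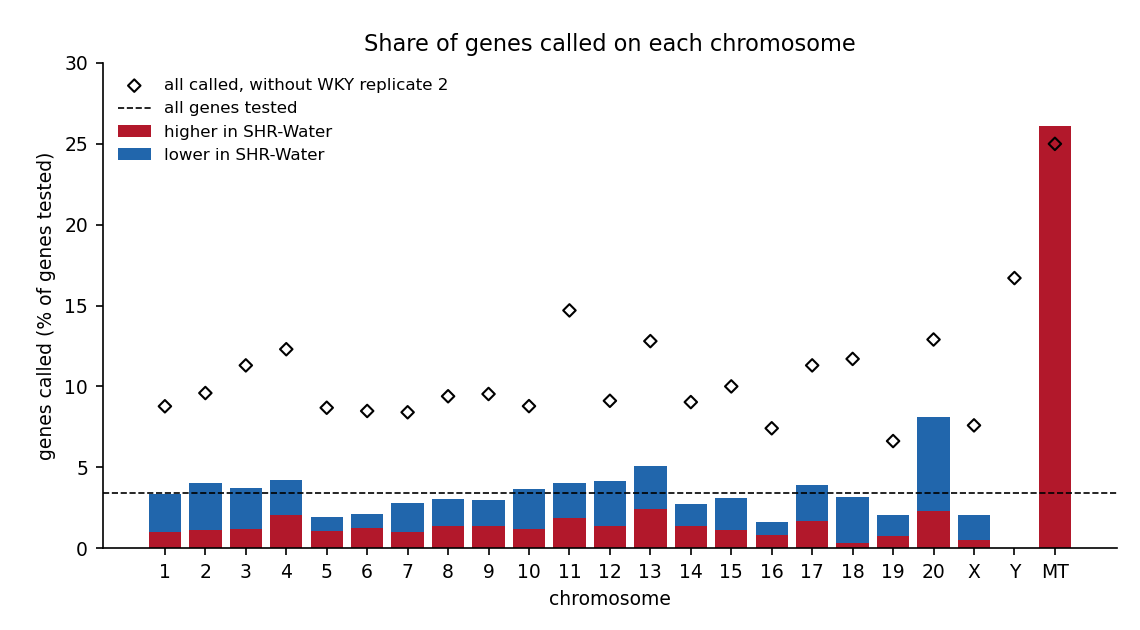
Share of the genes tested that were called on each chromosome, in percent, split into genes higher (red) and lower (blue) in SHR-Water, with the dashed line at the 3.42% of all genes. Diamonds give the share called without WKY replicate 2, and among the autosomes the bar is tallest for chromosome 20 (8.12%), while the mitochondrial bar (26.1%) rests on 6 of 23 genes and the Y diamond on 1 of 6.

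Most of the chromosome 20 calls lay in a stretch of 4441091 bases. Runs of neighbouring genes were taken as 3 or more called genes whose starts were at most 1000000 bases apart, and since measured values chose them, their counts are descriptions. The longest ran from 2491696 to 6932786 on chromosome 20 and held 22 called genes of 150 tested (14.7%), 4 higher and 18 lower. Outside it, 10 of the 244 other genes tested on the chromosome were called (4.10%), near the share of all genes. Of the 22, 15 did not overlap between the strains, 21 were called without WKY replicate 2 and all 22 without SHR-Water replicate 1. Of all 445 called genes, 275 did not overlap, 435 were called without WKY replicate 2 and 424 without SHR-Water replicate 1.

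Genes in this stretch changed in opposite directions side by side. At its start, 2540864 to 2541440 was at 4.78, 7.25 and 11.0 CPM in WKY and at 0, 0.0979 and 0.549 CPM in SHR-Water (log2 fold change -5.27 ± 0.57, edgeR adjusted p = 7.44e-05). Further along, 3 called genes crowd between 3135791 and 3166569. Those at 3135791 to 3140610 (plus strand) and 3139258 to 3166569 (minus strand) were higher in SHR-Water, from medians of 0.346 and 0.0641 CPM to 2.32 and 1.40 CPM, with log2 fold changes of 2.96 ± 0.60 and 3.39 ± 0.73 (edgeR adjusted p = 0.00989 and 0.0132). The 8-exon gene at 3146856 to 3150852 (plus strand), which lies within the bounds of the latter, went the other way, from 35.2, 52.5 and 87.4 CPM to 2.997, 4.16 and 5.10 CPM. Its log2 fold change was -3.81 ± 0.26 (edgeR adjusted p = 9.82e-07), the smallest of the 3. Single libraries moved 2 of these folds by over 1.5 times, to a log2 fold change of 4.62 for 3139258 without WKY replicate 1 and of -5.89 for 2540864 without SHR-Water replicate 1. The gene at 3139258 overlaps 1 annotated gene on its own strand, and reads lying in exons of both were not assigned to either. It overlaps 4 on the other strand. Counting used a strand option, and how far reads of overlapping genes on opposite strands were kept apart was not tested.

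Beyond them, 3791407 to 3794027 rose from 4.02, 5.68 and 8.79 CPM in WKY to 36.3, 48.5 and 71.7 CPM in SHR-Water (log2 fold change 3.03 ± 0.22, edgeR adjusted p = 2.4e-06). Just beyond it, 3 neighbouring genes fell. That at 3995544 to 4009587 went from a median of 7.19 to 0.712 CPM, with a log2 fold change of -2.41 ± 0.48 (edgeR adjusted p = 0.00921). The gene at 4039413 to 4049711 went from 107, 167 and 197 CPM to 14.1, 24.0 and 46.2 CPM, with a log2 fold change of -2.62 ± 0.26 (edgeR adjusted p = 3.62e-05). On the opposite strand, 4066132 to 4070721 went from 36.4, 56.9 and 76.8 CPM to 7.01, 10.04 and 14.4 CPM, with a log2 fold change of -2.45 ± 0.22 (edgeR adjusted p = 1.32e-05). None of these 3 overlapped between the strains. In SHR-TMAO their medians were 2.24, 46.2 and 21.4 CPM, each above the SHR-Water median and below the WKY median, and this was not tested.

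The most abundant gene called in the stretch was higher in SHR-Water. It covers 5351605 to 5421098 with 12 exons and was at 80.8, 128 and 206 CPM in WKY and at 793, 1068 and 2124 CPM in SHR-Water (log2 fold change 3.21 ± 0.31, edgeR adjusted p = 3.59e-05). Per kilobase of exon its mean level was 47.9 CPM in WKY and 449 CPM in SHR-Water, while that of the gene at 4039413 was 39.9 and 6.59 CPM. The 2 genes thus stood close in WKY and far apart in SHR-Water. A pair of annotated genes overlaps the former on its own strand, and reads lying in both were not assigned to either. Near the far end, 6351458 to 6358864 fell from 37.7, 63.5 and 115 CPM to 5.30, 9.97 and 17.7 CPM (log2 fold change -2.66 ± 0.33, edgeR adjusted p = 0.000314).

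**Figure D4:**
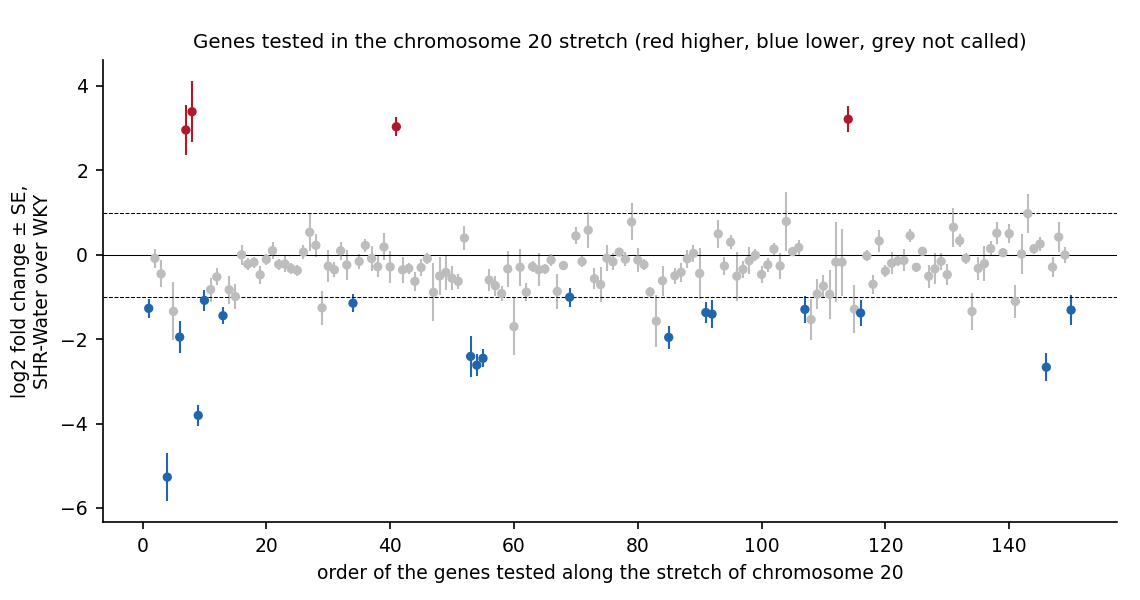
Log2 fold change of SHR-Water over WKY, with its SE as a bar, for the 150 genes tested in the chromosome 20 stretch, in the order of their starts. The 4 red genes are called higher, the 18 blue genes lower and the grey genes were not called, dashed lines mark 2-fold, and called genes lie between uncalled ones throughout.

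Over the genome 29 such runs held 125 of the 445 called genes (28.1%). Beside the shares called within the runs below, the share over all genes tested was 3.42%. In 12 of them every called gene was lower in SHR-Water, in 2 every called gene was higher, and 15 were mixed. Neighbouring genes can be copies of each other, and reads that fit several copies were not counted, so single members of such a group are less certain than its sum. Sequence likeness between the neighbours was not examined.

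On chromosome 1, from 227490777 to 227965386, 6 of 8 genes tested were called (75%). All 6 were lower in SHR-Water, all 6 separated the strains, and all 6 were called without WKY replicate 2 and without SHR-Water replicate 1. Of all 445 called genes, 275 did not overlap, 435 were called without WKY replicate 2 and 424 without SHR-Water replicate 1. The measured values chose the run, so its counts are descriptions. The most abundant per kilobase in WKY was the gene at 227892956 to 227904737, at a mean of 17.2 CPM per kilobase of exon against 2.20 in SHR-Water. Its WKY libraries fell apart, from 5.03 to 25.9 CPM (median 14.5), while SHR-Water ran from 0.756 to 3.33 (median 2.02). The log2 fold change was -2.98 ± 0.51 (edgeR adjusted p = 0.00343). The largest change in the run was that of the 10-exon gene at 227757425 to 227818305, which was at 7.76, 12.02 and 17.5 CPM in WKY and at 0, 0.394 and 0.961 CPM in SHR-Water (log2 fold change -4.85 ± 0.56, edgeR adjusted p = 0.000152). That gene lies within the span of another called member on the same strand, at 227743612 to 227904767, which also holds the gene at 227892956. Its log2 fold change was -3.29 ± 0.47 (edgeR adjusted p = 0.000826), and exons they share would leave reads unassigned.

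At the ends of this run, 227490777 to 227506822 went from a median of 3.40 to 0.435 CPM and 227957302 to 227965386 from 3.91 to 0.249 CPM (log2 fold changes -2.73 ± 0.38 and -2.97 ± 0.61, edgeR adjusted p = 0.000799 and 0.0102). Without SHR-Water replicate 3 the latter was -3.92. The sixth, 227670159 to 227680128, went from 1.03 to 0.235 CPM. The SHR-TMAO medians at both ends, 1.80 and 1.26 CPM, lay between the other groups, while those of the genes at 227757425 and 227892956, 0.315 and 2.46 CPM, were close to SHR-Water.

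**Figure D5:**
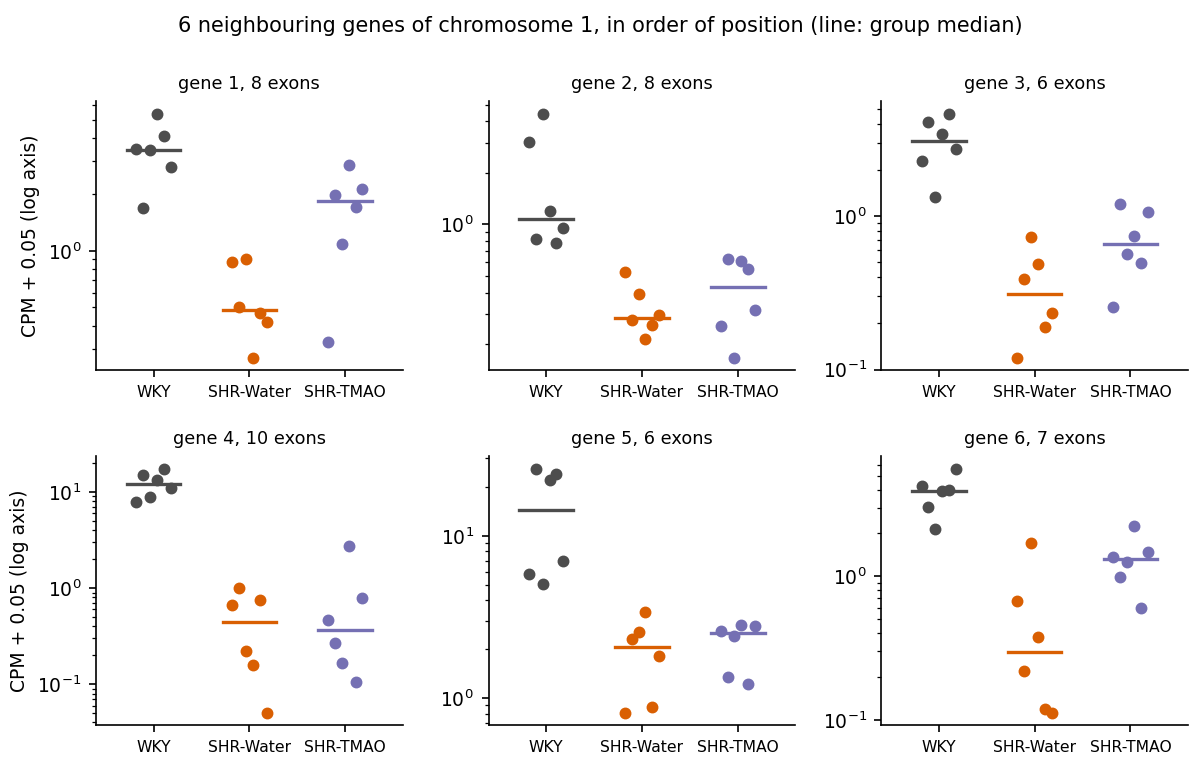
Level of the 6 called genes of the chromosome 1 run in each of the 18 libraries, as CPM plus 0.05 on a log axis, in order of position, with a line at the group median. In every panel all WKY points lie above all SHR-Water points, and SHR-TMAO points are shown without a test.

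In 3 compact runs every gene tested was called. On chromosome 1, 168945449 to 168972725, all 3 genes fell. The most abundant, at 168971274 to 168972725, went from 655, 1011 and 2565 CPM to 163, 261 and 381 CPM (log2 fold change -2.28 ± 0.36, edgeR adjusted p = 0.00189), and the gene at 168957460 to 168958836 went from a median of 107 to 21.1 CPM (-2.52 ± 0.39, edgeR adjusted p = 0.00151). WKY replicate 4 was the highest library for both. Another group of 3-exon genes, in a run on chromosome 10 with 5 of 34 genes tested called, all lower, included genes at similar levels. That at 15602794 to 15603649 went from 790.0, 1161 and 2080.4 CPM to 186, 329 and 481 CPM (-2.09 ± 0.31, edgeR adjusted p = 0.00109), and that at 15589364 to 15590220 from a median of 426 to 147 CPM (-1.74 ± 0.31, edgeR adjusted p = 0.00477). WKY replicate 4 was again the highest library for 15602794, at 2080.4 CPM, and SHR-Water replicate 6 was the highest of its group for 15602794 and for 168971274. The third gene there, at 15577249 to 15577977, was nearly absent in SHR-Water, with 6 counts in 6 libraries against 2069 in WKY (log2 fold change -8.42 ± 0.64, edgeR adjusted p = 2.8e-06, and -9.47 without SHR-Water replicate 6).

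On chromosome 5, 155246447 to 155264143, the genes tested were 3 of like structure, each with 3 exons and 1048 to 1090 bases, all on the minus strand. Their medians were 142, 174 and 173 CPM in WKY and 39.7, 60.2 and 70.5 CPM in SHR-Water. The log2 fold changes were -1.80 ± 0.35, -1.69 ± 0.38 and -1.37 ± 0.34 (edgeR adjusted p = 0.00827, 0.018 and 0.0298). The groups overlapped for the latter pair, and the call of the gene at 155261250 was lost in 7 of the alternative fits, all of which left out 1 library. In SHR-TMAO the medians were 100, 158 and 179 CPM, nearer to the WKY than to the SHR-Water medians, as a description without a test.

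On chromosome 1, 70222964 to 70266809, all 3 genes rose. That at 70222964 to 70237443 went from 52.7, 71.7 and 131 CPM to 111, 241 and 563 CPM (log2 fold change 1.75 ± 0.34, edgeR adjusted p = 0.0081), and overlapping it on the other strand the 1-exon gene at 70234160 to 70235091 went from a median of 7.58 to 28.3 CPM (2.38 ± 0.49, edgeR adjusted p = 0.0102). Both overlapped between the strains. The gene at 70253650 to 70266809 did not, at 0.128, 0.447 and 0.812 CPM in WKY and 0.962, 5.15 and 24.2 CPM in SHR-Water (4.12 ± 0.67, edgeR adjusted p = 0.00246). SHR-Water replicate 4 was the highest library for all 3, and without it the log2 fold change of the gene at 70253650 was 3.42.

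Runs with both directions included chromosome 11, where the genes at 33781870 and 33909439, nearly absent in WKY, were followed by 34592121 to 34598275, which fell from a median of 92.2 to 34.4 CPM (-1.36 ± 0.24, edgeR adjusted p = 0.00373). On chromosome 20, beyond the long stretch, 4 of 10 genes tested between 12917111 and 13825475 were called. The adjacent genes at 13799102 to 13816526 and 13817795 to 13825475 rose from medians of 27.8 and 7.08 CPM to 97.9 and 108 CPM, with log2 fold changes of 1.78 ± 0.27 and 4.01 ± 0.27 (edgeR adjusted p = 0.00126 and 9.82e-07). Per kilobase of exon, their means were 29.8 and 3.86 CPM in WKY and 104 and 63.1 CPM in SHR-Water. On chromosome 12, from 36638457 to 38839969, 6 of 37 genes tested were called, 3 in each direction. The gene at 36638457 to 36642734 fell from 371, 492.6 and 574 CPM to 103, 167 and 207 CPM (-1.57 ± 0.17, edgeR adjusted p = 7.94e-05), and its SHR-TMAO median of 107 CPM was lower still.

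On chromosome 2, between 197655786 and 198817146, 6 of 34 genes tested were called, 2 higher and 4 lower. They included a 1-exon gene at 198381798 to 198382190 on the minus strand. Another of 1 exon, at 198381808 to 198381945 on the plus strand, lies within its bounds. Both were lower in SHR-Water, with log2 fold changes of -1.95 ± 0.47 and -1.73 ± 0.37 (edgeR adjusted p = 0.0249 and 0.0129). Their WKY medians, 16.7 and 15.3 CPM, were alike, and how far reads of this site were given to the wrong strand was not tested.

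The mitochondrial genome encodes subunits of the respiratory chain together with its own ribosomal and transfer RNAs, and mitochondria in white fat supply the acetyl groups and the energy for lipid storage. Of its 23 genes tested, 6 were called (26.1%), all higher in SHR-Water, 4 of them without overlap. Over all genes tested, 3.42% were called and 4.13% did not overlap. The mitochondrial share of all counts was itself higher in SHR-Water at the median, 19.9% against 15.2%, and its part in these calls was not tested. The median log2 fold change of all 23 genes was 0.78.

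The larger mitochondrial changes were in its shortest genes. Of 8 genes tested of 66 to 71 bases, 4 were called and 7 had a positive log2 fold change (median 1.72), and of 15 genes of 204 to 1830 bases, 2 were called and 12 were positive (median 0.58). The gene at 3761 to 3831 (minus strand) was at 8.34, 22.1 and 31.1 CPM in WKY and at 61.0, 107 and 181 CPM in SHR-Water, without overlap (log2 fold change 2.38 ± 0.32, edgeR adjusted p = 0.000484). The gene at 14062 to 14130 rose from a median of 5.24 to 23.6 CPM (2.08 ± 0.31, edgeR adjusted p = 0.0011), and that at 5256 to 5321 from 1.16 to 5.41 CPM with overlap (2.46 ± 0.54, edgeR adjusted p = 0.0155). Their SHR-TMAO medians were 79.6, 9.31 and 0.577 CPM, each lower than in SHR-Water. The remaining called gene of this length, at 4943 to 5008, was also higher in SHR-Water than in WKY, without overlap (2.19 ± 0.47, edgeR adjusted p = 0.0131). Its median was 1.77 CPM in SHR-TMAO and 1.69 CPM in SHR-Water, so it was not lower with TMAO. These SHR-TMAO levels were not tested.

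Of the longer ones, 11736 to 13565 rose from 1622, 3239 and 4109 CPM to 3544, 6306 and 9585 CPM (1.05 ± 0.28, edgeR adjusted p = 0.0444), and the groups overlapped. Its SHR-TMAO median was 3451 CPM. The call at this gene was lost in 12 of its alternative fits, including the one without SHR-Water replicate 1, and that of the gene at 9870 to 10166 (1.14 ± 0.29, edgeR adjusted p = 0.0297) in 7. Leaving the mitochondrial genome out before normalization changed the count of nuclear calls from 439 to 426.

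The share called also differed by gene structure, given here as a description. Among nuclear genes of 1 exon, 40 of 691 were called (5.79%), against 4.10% of those with 2 to 4 exons and 3.04% of those with 5 or more, beside 3.38% for all nuclear genes. Of the 48 genes that changed 8-fold or more, 7 had 1 exon, 2 higher and 5 lower. Overlap with another annotated gene moved the share little, to 3.96% for overlap on the same strand and 3.17% for overlap on the other. With genes split by mean level into 4 classes of like size, 5.05%, 3.97%, 2.09% and 2.40% were called from the lowest class to the highest. In the same order, the groups did not overlap for 110, 132, 116 and 176 genes, most in the highest class. Of the 691 genes of 1 exon, 24 did not overlap, against 534 of all 12994 nuclear genes. The larger shares of low-level and 1-exon genes were thus seen for the call with its 2-fold limit, not for separation of the groups.

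The balance of directions moved with exon length. With genes split by length into 4 such classes, in the shortest (up to 1490 bases) 34 were higher and 93 lower, and in the next (up to 2333 bases) 32 and 90. In the longer classes the numbers were 41 and 60 (up to 3614 bases), then 55 higher and 34 lower, so the direction of the majority turned in the longest genes. The libraries also differed in how counts depended on length. The rank correlation between gene length and a library's deviation from the mean of all libraries ran from -0.445 to 0.214 in WKY and from -0.260 to 0.407 in SHR-Water. In WKY only replicate 2 was positive. In SHR-Water the trend was positive in replicates 2, 3 and 4 (0.407, 0.382 and 0.405) and negative in replicates 1, 5 and 6. With that trend removed per library as an offset, the longest class had 40 higher and 54 lower, and the shortest 56 higher and 72 lower, while 458 genes were called in all, 387 of them among the 445. The majority of higher calls in the longest genes was therefore not kept under the offset.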

How the data were processed

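RNA of vWAT from 18 rats was sequenced, and 12 libraries are compared here. The authors trimmed reads with cutadapt 2.5, aligned them with HISAT2 2.1.0 to Rnor_6.0 and deposited raw counts per gene from featureCounts 1.6.3 (exons summed by gene, Ensembl release 96 in the file header, strand option 2, multi-mapping and ambiguous reads left out by default).

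Counts were fitted with edgeR 4.0.16 in R 4.3.3 (TMM factors, filterByExpr, quasi-likelihood test) over the 6 SHR-Water and 6 WKY libraries with no covariate, and a gene was called at adjusted p under 0.05 and a change of at least 2-fold. The study names DESeq2 with the same limits, which was run as an alternative (1.42.0), as was limma voom 3.58.1. Levels in CPM use TMM factors of all 18 libraries. The fit was tested on simulated counts of 12866 genes, at adjusted p under 0.05 with no fold limit. It recovered 51 of 100 genes changed 2-fold and 85 of 100 changed 4-fold, with 4 false. Many changes near 2-fold can therefore be missed.

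The members and lists were chosen with earlier results of these data known. Lists by gene symbol could not be applied. Genes named were those of smallest adjusted p whose groups did not overlap (12 in each direction). To these came the 4 of smallest adjusted p in each of the 5 runs with most called genes. Called genes with at most 3 counts in a group were also named. Identifiers were given for the 2 higher and 2 lower of these genes of smallest adjusted p, leaving out 4 already printed for these data. Added after values were seen were the called genes of 10 runs, the 12 largest changes of the longest run and changes of at least 4.5 on the log2 scale. Not all of these are described.

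Alternatives were other normalizations, tests and filters, all 18 libraries in 1 fit, a replicate block, no mitochondrial genes, a gene length offset, and each library left out. Totals were 10774133 to 18841046 counts a library, and intervals cover counting error only.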

Additional observations from a re-analysis of the deposited data

Results flagged for a closer look

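Among the 150 sets of 6 levels looked at for the genes named, 11 held a library far from the other 5 by Dixon's test, where chance gives about 1 in 20. In WKY these were replicate 4 for the chromosome 1 gene at 168945449 (12.9 CPM, the others 2.28 to 4.09), replicate 1 for the chromosome 11 gene at 33781870 (0.271, the others 0) and the chromosome 20 gene at 3139258 (0.632, the others at most 0.183), and replicate 6 for the chromosome 11 gene at 33909439 (0.961, the others at most 0.321).

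In SHR-Water they were replicate 6 for 168945449 on chromosome 1 (1.65 CPM, the others at most 0.687), 15577249 on chromosome 10 (0.245, the others at most 0.0687) and 80948658 on chromosome 2 (0.0612, the others 0), replicate 4 for 70253650 on chromosome 1 (24.2, the others at most 8.93) and 13130636 on chromosome 20 (1663, the others at least 2031), replicate 3 for 227957302 on chromosome 1 (1.64, the others at most 0.618) and replicate 1 for 198321142 on chromosome 2 (2.34, the others at least 3.22). The strains did not overlap for any of these genes, so leaving out 1 library could not turn the direction of the difference.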

How the results depend on the processing

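Against the 445 genes called, the count came to 867 with DESeq2's Wald test, 1649 with limma voom and quality weights, 798 with no fold limit, and 1841 without both WKY replicate 2 and SHR-Water replicate 1, an alternative chosen after seeing the data. Leaving out 1 library gave between 337 (SHR-Water replicate 4 dropped) and 1278 (WKY replicate 2 dropped), and the cause was not tested. The share of lower genes, 62.2%, was 36.3% with voom, 34.7% without WKY replicate 2, 37.2% without both, and 49.9% with a replicate block. The replicate block called 591 genes (296 higher, 295 lower). Same-numbered rats correlated at -0.273 to 0.535 in their deviations from the group means, 5 of 6 pairs over 0.1 and 1 below 0, and 4 of 6 numbers had their own number as best partner. The labels tie the numbers to nothing shared and not every pair correlated, so the numbers were not taken to pair the rats. The other normalizations, no filter, all 18 libraries, no mitochondrial genes and the length offset called 426 to 552.

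Leaving out 1 library moved the fold of 11 of the 79 genes named by over 1.5 times. Among them is 168945449 on chromosome 1, from -2.68 to -2.05 on the log2 scale without WKY replicate 4. For these 79, 1731 alternative values were computed, all in the direction reported, and 42 lost the call: 12 for 11736 and 7 for 9870 in the mitochondrial genome, 10 for 38144855 and 1 for 37531095 on chromosome 12 (-0.90 with the length offset), 7 for 155261250 on chromosome 5, and 4 for 198381798 and 1 for 198797159 on chromosome 2. Genes with few counts in a strain are limited by depth, since 1 more read would move their ratio.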
